A study of Homo sapiens with 20 samples.

Results

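Open chromatin under the fusion protein YAP-TFE3 was compared with open chromatin under full-length CAMTA1, a protein that supplies no part of that fusion. The 2 ATAC-seq peak lists held 459446 peaks of the 1407450 in all 7 lists of the series, 235795 for YAP-TFE3 and 223651 for CAMTA1. Peaks that overlapped by 1 bp or more were called shared, which gave 120547 pairs in which 1 peak of each list met 1 peak of the other. A peak was called one-sided if its summit −log10 p, the caller's measure of how far the tallest point of the peak stood above background, was 6 or more and the other list had no peak within 1 kb. These were 940 YAP-TFE3 peaks and 270 CAMTA1 peaks. Both sets were chosen by the values of these lists, so their presence in the one and absence from the other is a description of the choice. What the remaining lists held at the same places was not used in it, but is not independent of it, since the lists overlap widely.

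The cells were SW872, an established human liposarcoma line, in which ATAC-seq marks open chromatin by the insertion of sequencing adapters by a transposase. All groups were pooled stable lines made with a retroviral vector. Each except the empty vector group thus expressed its protein from that vector, on top of whatever the cells make themselves. The 20 libraries fell into 7 groups. The empty vector (EV), YAP5SA and TAZ4SA (YAP and TAZ with serines changed so that LATS kinases no longer restrain them), CAMTA1, TAZ-CAMTA1 and YAP-TFE3 had 3 libraries each, and TFE3 had 2. The third EV library is titled a redo, and the titles of the YAP-TFE3 libraries name YAP5SA as the YAP part. The study describes separate transductions as its replicates, but each group has a single deposited list and no value per library. No value below therefore has a replicate error, no difference was tested, and the reads behind each list are unknown. The 95% intervals given for shares (Wilson) and medians (order statistics) cover counting error only.

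YAP and TAZ are coactivators at the end of the Hippo pathway. They do not bind DNA themselves but reach it through TEAD factors. CAMTA1 belongs to the calmodulin-binding transcription activators, and in epithelioid hemangioendothelioma, a vascular sarcoma, its C terminus is joined to the N terminus of TAZ. TFE3 is a basic helix-loop-helix leucine zipper factor of the MiT family, known for its control of lysosomal genes, and YAP-TFE3 is the fusion of a smaller group of the same tumours. YAP-TFE3 and CAMTA1 thus have no sequence in common by construction, whereas TAZ-CAMTA1 holds the C terminus of CAMTA1. What accessible chromatin the pair had in common, and how much of it was also open in EV, TFE3 and YAP5SA cells, was the question put to the lists.

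Most YAP-TFE3 peaks met a CAMTA1 peak, and nearly all tall ones did. Of all YAP-TFE3 peaks, 162489 (68.9%, 68.7 to 69.1%) overlapped a CAMTA1 peak, and 169020 CAMTA1 peaks (75.6%, 75.4 to 75.8%) overlapped a YAP-TFE3 peak. The shared share of YAP-TFE3 peaks was 80.4% at a summit of 4 or more, 93.6% at 5, 98.2% at 6 and 99.9% at 8. For CAMTA1 peaks it was 85.9, 97.0, 99.4 and 99.98% at the same summits. The area under the curve of a peak, the caller's signal value, was concentrated in shared peaks. These held 97.9% of the summed area of the YAP-TFE3 list and 98.5% of that of the CAMTA1 list. The baseline from which the caller takes this area is not given in the sources used here. Peaks of the 2 lists without a partner were narrow and low. Their median width was 100 bp in either list, against 299 bp for shared YAP-TFE3 and 271 bp for shared CAMTA1 peaks. Their median summit was 3.98 and 3.92, against 5.90 and 5.52.

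Peaks in a pair were on average alike in width and position, though single pairs differed in width either way, and the YAP-TFE3 peak had the larger area in most pairs. Over the 120547 pairs the median width was 257 bp in YAP-TFE3 and 244 bp in CAMTA1, a median log2 ratio of 0.02 (0.02 to 0.03) with the middle 90% of pairs from -1.15 to 1.36. Their summits lay a median of 18 bp apart (quartiles 6 and 55 bp), with 52.6% of pairs within 20 bp. The overlap took up a median of 92.0% of the YAP-TFE3 peak and 95.1% of the CAMTA1 peak. Since pairs were chosen by overlap, their closeness in position is in part set by the choice. The median area was 289 in YAP-TFE3 and 225 in CAMTA1. The median log2 ratio of areas was 0.26 (0.26 to 0.27), and 63.8% of pairs were higher in YAP-TFE3. The summit −log10 p was a median of 0.34 (0.33 to 0.35) higher in YAP-TFE3. A further 17633 YAP-TFE3 peaks spanned 2 or more CAMTA1 peaks each, and 12825 CAMTA1 peaks spanned 2 or more YAP-TFE3 peaks.

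The area ratio of the pairs varied with peak height, both in its middle and in its spread, and was tightest among the tallest peaks. The pairs were ranked by mean summit and divided into 10 classes of equal size. In the class with the tallest summits, the middle 90% of log2 area ratios ran from -0.22 to 0.60, the median was 0.24, and 84.5% of pairs were higher in YAP-TFE3. In the class with the lowest summits, the ratios ran from -1.64 to 1.79, the median was 0.07, and 52.9% were higher in YAP-TFE3. The median areas of this class were 39.8 in YAP-TFE3 and 37.4 in CAMTA1, near the caller's minimum area of 20. That minimum bounds the ratios of low peaks, and its part in the values of the low classes was not tested. The spread was widest in class 4 counted from the lowest, from -2.38 to 3.06, where the median was also the largest of the 10 classes, at 0.41. Over the 43057 pairs with a summit of 6 or more in both lists, the median log2 area ratio was 0.23 and the log2 width ratio 0.01. Across all pairs the log2 areas of the lists had a Pearson r of 0.877 and a Spearman rho of 0.827, and across the pairs with summits of 6 or more both were 0.95. These values run across peaks, which share their libraries and are not independent replicates. Whether the higher YAP-TFE3 areas came with a deeper list was not tested, since depth is unknown, and the medians of whole lists lay in the same direction (154 against 140).

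**Figure D1:**
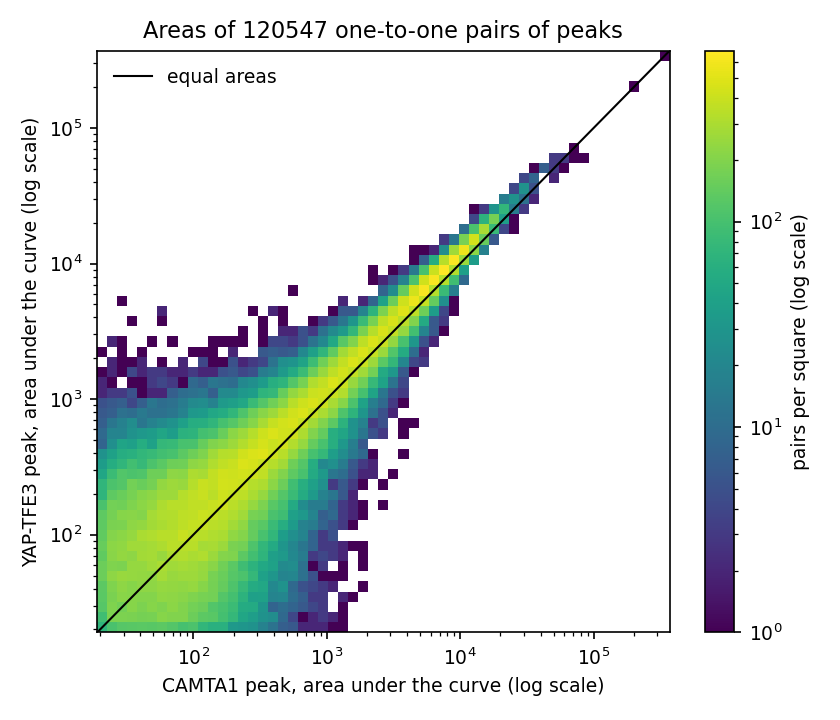
Area under the curve of the CAMTA1 peak (x axis, log scale) against that of the YAP-TFE3 peak (y axis, log scale) in the 120547 one-to-one pairs; colour gives the number of pairs in each square on a log scale and the line marks equal areas. The cloud is narrowest at large areas, where most squares with many pairs lie just above the line (median log2 ratio 0.24 in the class with the tallest summits).

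Most of the common chromatin also lay in EV peaks. The bases that lay in both a YAP-TFE3 and a CAMTA1 peak came to 81.3 Mb, 77.9% of the bases of the YAP-TFE3 list and 82.8% of those of the CAMTA1 list. Of these shared bases 72.2% also lay in EV peaks, 79.9% in TFE3 peaks, 77.5% in YAP5SA peaks, and 91.5% in at least 1 of the 3. In the same order the shares were 59.6, 65.7 and 65.6% of all YAP-TFE3 bases and 62.7, 68.8 and 69.1% of all CAMTA1 bases. TAZ-CAMTA1 peaks held 94.1% of the shared bases and TAZ4SA peaks 53.8%, and 2.44% lay in no other list. Of all YAP-TFE3 bases TAZ-CAMTA1 peaks held 84.7% and TAZ4SA peaks 43.6%, and of all CAMTA1 bases 86.2 and 46.5%. By number, 62.2% of the pairs had an EV peak (61.9 to 62.5%), 68.7% a TFE3 peak and 72.3% a YAP5SA peak. The shares were 49.3, 52.6 and 58.7% of all YAP-TFE3 peaks and 53.2, 56.6 and 62.8% of all CAMTA1 peaks. As the lists overlap widely, higher shares in what the pair has in common are not independent of the choice.

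The pairs were divided by which of EV, TFE3 and YAP5SA had a peak there, and the largest classes were those with all 3 and with none. All 3 had a peak at 57851 pairs (48.0%), whose median areas were 1096 in YAP-TFE3 and 948 in CAMTA1. None had a peak at 15675 pairs (13.0%, 12.8 to 13.2%), and these were small in both lists, with median areas of 72.5 and 58.1. Their share was 6.21% with equal numbers of peaks from every list and 5.29% when a peak of the 3 within 1 kb counted as present. Pairs with a peak of YAP5SA alone of the 3 numbered 11767, those of TFE3 alone 6459, those of both but not EV 11675, and those of EV alone 4466. The pairs held by either parent of the fusion but not by EV were thus 24.8% of all pairs. The excess of YAP-TFE3 area was present in every class, with median log2 ratios from 0.19 (EV with YAP5SA) to 0.38 (TFE3 alone) and 0.25 where all 3 had a peak. Of the 15675 pairs outside EV, TFE3 and YAP5SA, 62.4% had a TAZ-CAMTA1 peak and 9.45% a TAZ4SA peak. TAZ-CAMTA1 had a peak at 99.4% of the pairs held by all 3, at 97.9% of those with EV and TFE3 and at 88.2% of those with EV and YAP5SA. Its share was 89.5% with TFE3 alone, 84.7% with EV alone and 69.2% with YAP5SA alone. TAZ4SA had a lower share with TFE3 alone (14.5%) than with YAP5SA alone (29.1%). The median YAP-TFE3 area was 137 with TFE3 alone and 99.3 with YAP5SA alone. What part peak size and list length had in these shares was not tested.

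How near CAMTA1 stood to YAP-TFE3, relative to the parents of the fusion, depended on the measure and on how it allowed for the length of the lists. The pair was chosen because its index was above those of YAP-TFE3 with TFE3 and YAP5SA, so that order restates the choice. The Jaccard index, the bases in both lists divided by the bases in either, was 0.671 for YAP-TFE3 with CAMTA1, 0.630 with TFE3 and 0.558 with YAP5SA. The covered lengths alone cap this index. The CAMTA1 list was close to YAP-TFE3 in length and could have reached 0.941, whereas the shorter TFE3 list could have reached 0.699 at most. YAP-TFE3 with CAMTA1 thus stood at 71.2% of its cap, with YAP5SA at 67.0%, with TAZ-CAMTA1 at 74.2% and with TFE3 at 90.2%. The other 2 short lists were also nearer to their caps than CAMTA1 was, EV at 81.7% and TAZ4SA at 80.5%. Read by containment, 94.0% of the bases of the TFE3 list, 82.8% of the CAMTA1 list and 78.8% of the YAP5SA list lay in YAP-TFE3 peaks, as did 88.2% of the EV list and 86.1% of the TAZ4SA list. When each list was cut to the same number of peaks these were 92.4% for TFE3, 84.2% for CAMTA1 and 81.1% for YAP5SA, so TFE3 stayed the most contained of the 3. Containment the other way had CAMTA1 first. With equal numbers of peaks 80.1% of the YAP-TFE3 bases lay in CAMTA1 peaks, 70.9% in TFE3 and 66.9% in YAP5SA peaks. Containment of the partner favours lists that cover fewer bases, and containment of YAP-TFE3 those that cover more. The excess of CAMTA1 over TFE3 in the index itself was 0.0406 with all peaks and 0.0269 with equal numbers.

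Outside EV peaks the index was lower for every partner and the order was kept. It was 0.403 with CAMTA1, 0.295 with TFE3, 0.268 with YAP5SA and 0.434 with TAZ-CAMTA1, and within EV peaks it was 0.901, 0.868, 0.819 and 0.918. In these bases outside EV, YAP-TFE3 had 22.6 Mb in common with CAMTA1 and 13.4 Mb with TFE3. The latter was 81.0% of what the TFE3 list covered there, and the former 61.7% of what CAMTA1 covered there. Of the YAP-TFE3 peaks with no EV peak, 46.9% (46.6 to 47.2%) had a CAMTA1 peak, 35.5% a YAP5SA peak, 23.5% a TFE3 peak and 57.0% a TAZ-CAMTA1 peak. A longer partner list can meet more peaks, and the part of length in this order was not tested. Against the caps set by the lengths outside EV, the index stood at 75.4% with TFE3 and 50.4% with TAZ-CAMTA1. It stood at 46.3% with CAMTA1 and 35.6% with YAP5SA.

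CAMTA1 peaks covered most of what YAP-TFE3 had in common with its own parents. Of the 68.5 Mb in both YAP-TFE3 and TFE3 peaks, 94.9% also lay in CAMTA1 peaks, as did 92.1% of the bases in both YAP-TFE3 and YAP5SA peaks. The bases in YAP-TFE3 and CAMTA1 but not TFE3 outnumbered those in YAP-TFE3 and TFE3 but not CAMTA1 by 4.67 to 1, and with YAP5SA in place of TFE3 by 3.37 to 1. With TAZ-CAMTA1 in that place the order was reversed, at 0.406 to 1, and 86.6% of the bases it had in common with YAP-TFE3 lay in CAMTA1 peaks. The TFE3 list covered 72931288 bases and the YAP5SA list 86923118, against 98274341 for CAMTA1. A shorter list leaves fewer bases for its side of such a ratio, and the part of length was not tested. Such a ratio lies above 1 whenever YAP-TFE3 has more bases in common with CAMTA1 than with the third list. For TFE3 and YAP5SA its direction thus restates the choice of the pair, and only its size is described. CAMTA1 had higher indices with both parents than YAP-TFE3 itself had, at 0.652 with TFE3 and 0.579 with YAP5SA. That order was the same with equal numbers of peaks (0.687 against 0.670 for TFE3, and 0.603 against 0.579 for YAP5SA). By containment it went the other way, since 92.7% of the TFE3 bases and 78.1% of the YAP5SA bases lay in CAMTA1 peaks, each below its value for the longer YAP-TFE3 list.

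**Figure D2:**
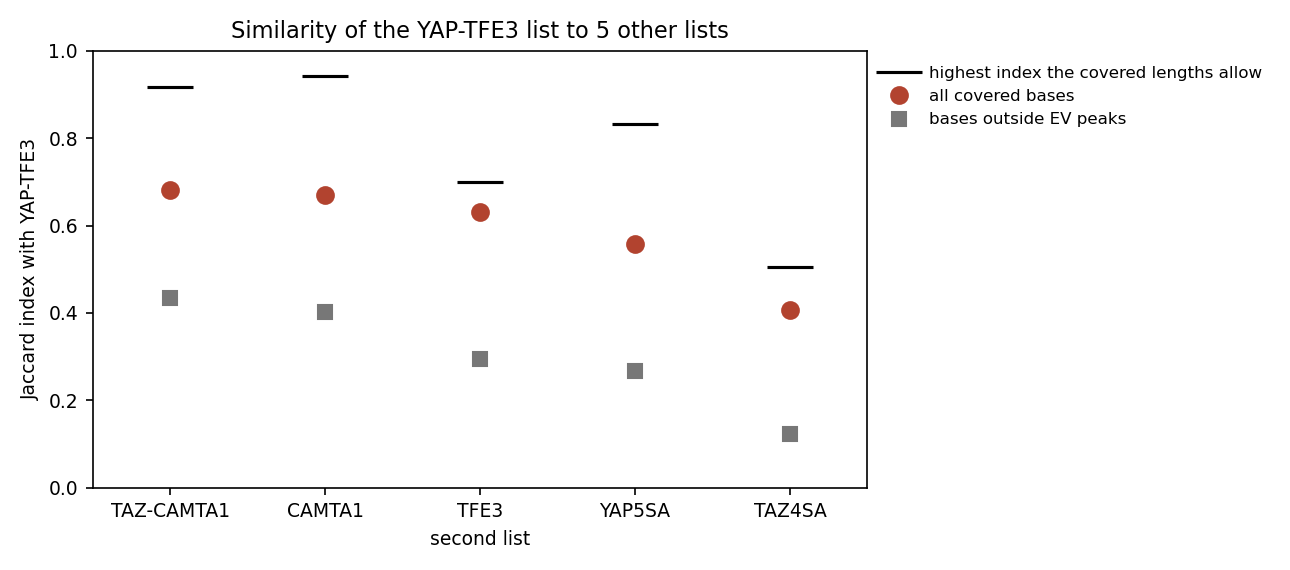
Jaccard index of the YAP-TFE3 list (y axis, no unit) with 5 other lists (x axis), over all covered bases (circles) and over bases outside EV peaks (squares); bars mark the highest index that the covered lengths allow. CAMTA1 (0.671) lies above TFE3 (0.630), but TFE3 lies nearest to its bar (0.699).

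One-sided peaks were few and thinned out with summit height. The 940 YAP-TFE3 peaks were 0.399% of that list and 1.17% (1.10 to 1.24%) of its 80465 peaks with a summit of 6 or more. The 270 CAMTA1 peaks were 0.121% of their list and 0.367% (0.326 to 0.413%) of its 73556 peaks of that height. Between YAP-TFE3 and other lists the same rule gave 2521 YAP-TFE3 peaks without TFE3 (1.07%), 3490 without YAP5SA (1.48%) and 812 without TAZ-CAMTA1 (0.344%). In the reverse direction it gave 4 TFE3 peaks (0.00256%), 2872 YAP5SA peaks (1.24%) and 357 TAZ-CAMTA1 peaks (0.151%) without YAP-TFE3. CAMTA1 against TAZ-CAMTA1 gave 379 (0.169%) and 470 (0.198%). CAMTA1 left fewer unmatched tall peaks in the YAP-TFE3 list than either parent did, and only TAZ-CAMTA1 left fewer among these 4 lists. The pair was chosen because its overlap was above those of YAP-TFE3 with its parents, so the order against the parents largely restates the choice. These counts come from 1 list per group and from lists of unequal length, and the part of list length in them was not tested. With equal numbers of peaks there were 2172 one-sided YAP-TFE3 and 909 one-sided CAMTA1 peaks.

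No summit was very tall in either set. The number fell to 60 YAP-TFE3 and 9 CAMTA1 peaks at a summit of 8 or more and to 7 and 0 at 10. None of 22297 YAP-TFE3 peaks with a summit of 12 or more was one-sided, which allows a share of up to 0.0135% (3 counts of the total, as for the next limit), and none of 28514 CAMTA1 peaks at 10 or more, which allows up to 0.0105%. The median summit was 6.53 in the YAP-TFE3 set and 6.39 in the CAMTA1 set, and 75 and 81.9% were under 7. Median areas were 453 and 395 and median widths 320 and 323 bp. The nearest peak of the other list was a median of 7694 bp away from a one-sided YAP-TFE3 peak and 5661 bp from a one-sided CAMTA1 peak. It was more than 10 kb away for 412 and 80 of them. An area over 1000 was found in 81 of the YAP-TFE3 and 12 of the CAMTA1 set. By chromosome, one-sided YAP-TFE3 peaks were from 0.604% (chromosome 20) to 2.01% (chromosome 4) of the autosomal peaks with a summit of 6 or more, and one-sided CAMTA1 peaks from 0.0388% (chromosome 19, a single peak) to 0.692% (chromosome 6). At the edge of the rule, the lowest summits inside were 6.0003 and 6.0006 and the highest outside 5.9979 and 5.9996. The smallest gaps inside were 1003 and 1002 bp and the largest outside 990 and 998 bp.

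**Figure D3:**
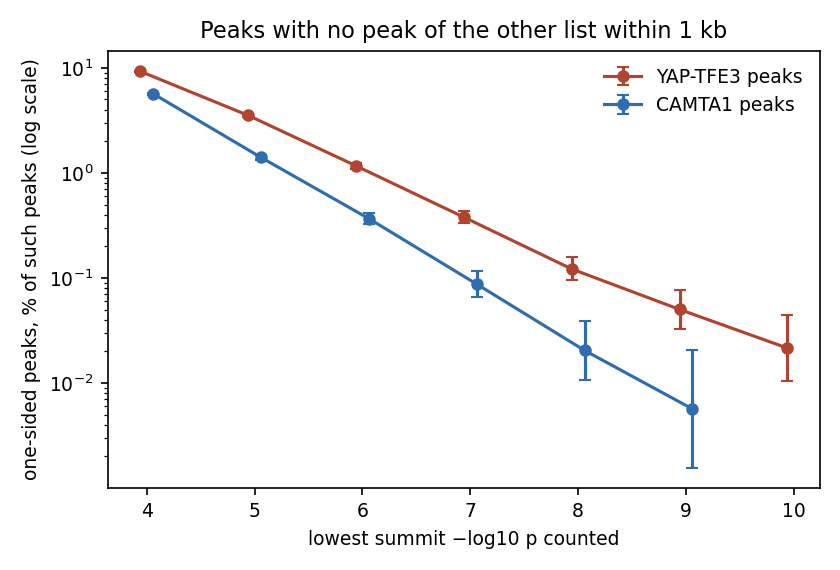
Share of peaks with no peak of the other list within 1 kb (y axis, % on a log scale) among peaks with at least the summit −log10 p on the x axis, for YAP-TFE3 and CAMTA1; bars are Wilson 95% intervals and summits without any such peak are not drawn. The YAP-TFE3 share lies above the CAMTA1 share throughout, 1.17 against 0.367% at 6.

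The 2 one-sided sets differed in what the other cells held at the same places. Taken singly, EV, TFE3 and YAP5SA each had a peak at a minority of the one-sided YAP-TFE3 sites, whereas TFE3 and YAP5SA each had one at most one-sided CAMTA1 sites. EV had a peak at 25% (22.3 to 27.9%) of the YAP-TFE3 sites and 48.1% (42.3 to 54.1%) of the CAMTA1 sites. TFE3 had one at 30.6% (27.8 to 33.7%) and 68.5% (62.8 to 73.8%). YAP5SA had one at 41.2% (38.1 to 44.3%) and 74.1% (68.5 to 78.9%). TAZ-CAMTA1 had one at 64.5% (61.4 to 67.5%) and 79.6% (74.4 to 84.0%), and TAZ4SA at 18.7 and 48.9%. None of the 5 had a peak at 186 YAP-TFE3 sites (19.8%) and at 6 CAMTA1 sites (2.22%).

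As a reference, shared peaks of similar height (a summit from 6 to under 7) had a peak in the other lists more often in all 10 cases. The reference peaks were chosen for having a peak in a second list, and the one-sided peaks for lacking one. As the lists overlap widely, this direction is largely built into the choice, and only the sizes of the shares are described. Among 17369 shared YAP-TFE3 peaks of this height, 72.3% had an EV peak, 87.7% a TFE3 peak, 82.2% a YAP5SA peak and 97.2% a TAZ-CAMTA1 peak. Among 17068 shared CAMTA1 peaks the shares were 79.2, 92.8, 87.7 and 97.8%. The gap was smallest for TAZ4SA at CAMTA1 sites, with 48.9% (43.0 to 54.8%) at one-sided and 55.6% (54.8 to 56.3%) at shared peaks.

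**Figure D4:**
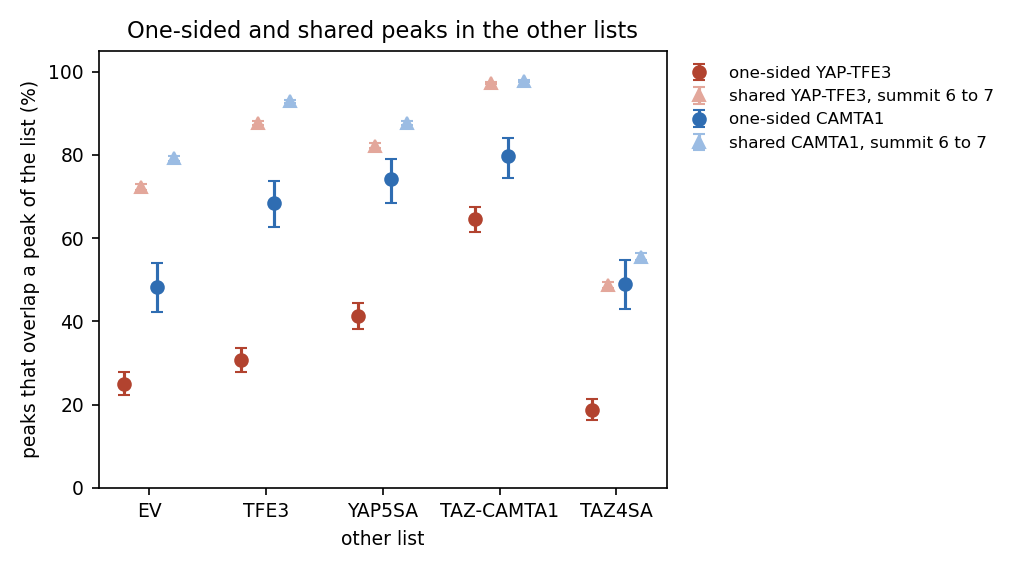
Share of peaks (y axis, %) that overlap a peak of each of the 5 remaining lists (x axis), for one-sided YAP-TFE3 and CAMTA1 peaks (circles) and for shared peaks of the same lists with a summit from 6 to under 7 (triangles); bars are Wilson 95% intervals. One-sided YAP-TFE3 peaks lie lowest in all 5 lists, from 18.7% in TAZ4SA to 64.5% in TAZ-CAMTA1.

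Split by EV, TFE3 and YAP5SA together, 375 one-sided YAP-TFE3 peaks (39.9%, 36.8 to 43.1%) had a peak in none of the 3 and 89 (9.47%) in all of them. A TFE3 or YAP5SA peak without an EV peak was found at 330 (35.1%). Among those with only 1 parent, YAP5SA without TFE3 (229) was more frequent than TFE3 without YAP5SA (130). Of the 375, TAZ-CAMTA1 had a peak at 165. For the one-sided CAMTA1 peaks, 17 (6.30%) had none of the 3, 83 (30.7%) had all 3, and 123 (45.6%) had TFE3 or YAP5SA without EV.

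At one-sided CAMTA1 sites the list most often with the largest area was YAP5SA, whereas at shared sites it was TAZ-CAMTA1. At 134 of the 270 sites (49.6%, 43.7 to 55.6%) YAP5SA had the largest summed area of the 5 remaining lists, and TAZ-CAMTA1 at 103 (38.1%). At the 17068 shared CAMTA1 peaks of similar height YAP5SA was the largest at 18.4% and TAZ-CAMTA1 at 74.9%. A YAP5SA peak with a summit of 6 or more stood at 108 of the one-sided CAMTA1 sites (40%, 34.3 to 45.9%), against 36.6% at shared peaks, which lies within that interval. TAZ-CAMTA1 had such a tall peak at 20% of the sites (15.7 to 25.2%) against 66.1% at shared peaks, and TFE3 at 1.48% against 12.5%. TAZ4SA, the hyperactive form of the paralogue of YAP, had one at 14.8% (11.1 to 19.5%) against 11.2%. At one-sided YAP-TFE3 sites every list was low instead. Tall peaks stood there in 5.64% for YAP5SA against 27.5% at shared YAP-TFE3 peaks of similar height, in 9.36 against 55.7% for TAZ-CAMTA1, and in 0% against 7.13% for TFE3. The largest of the 5 was TAZ-CAMTA1 at 50.6% of these sites and YAP5SA at 18.5%. Areas in different lists may differ with depth, which is unknown. One-sided CAMTA1 sites were chosen for lacking a YAP-TFE3 peak, and TAZ-CAMTA1 had the highest Jaccard index with YAP-TFE3 of the 5 lists (0.681). Lower TAZ-CAMTA1 values there than at shared peaks are thus largely built into the choice. That also leaves more sites at which another list is the largest. Likewise, one-sided YAP-TFE3 sites were chosen for lacking a CAMTA1 peak, so lower values there are not independent of the choice.

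The 5 one-sided YAP-TFE3 peaks with the largest area were unmatched in EV and TFE3 as well. The largest, on chromosome 14 from 20386123 to 20387564 (hg19, as all positions here), had an area of 3889 and a summit of 10.2. YAP5SA had an area of 1584 there and TAZ4SA 52.8, while the nearest peaks of CAMTA1, EV, TFE3 and TAZ-CAMTA1 were 27420 to 27808 bp away. The second, on chromosome 18 from 74974277 to 74975830, had an area of 3409, with 241 in TAZ-CAMTA1 and no peak of any other list. At the third, on chromosome 2 from 205271580 to 205272777, the area was 3195, with 80.4 in TAZ-CAMTA1 alone of the other lists. The fourth lay on chromosome 6 from 133966103 to 133967423, with 3089 in YAP-TFE3, 339 in TAZ-CAMTA1 and 73.5 in YAP5SA. The fifth lay on chromosome 9 from 77281201 to 77282500, with 2704 in YAP-TFE3 and 94.1 in TAZ-CAMTA1. The YAP-TFE3 area was 2.45 times that of the next list at the first of these sites and 9.12 to 39.8 times at the other 4. Genes at or near them were not analysed here, since no annotation of this build was used.

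The 5 largest one-sided CAMTA1 peaks had peaks in most other lists, and 4 were larger in YAP5SA than in CAMTA1. The largest was the exception. It lay on chromosome 2 from 235678543 to 235679504, with an area of 1822 in CAMTA1, 890 in TAZ-CAMTA1, 317 in TFE3, 170 in EV and 68.7 in YAP5SA, and its nearest YAP-TFE3 peak was 1187 bp away. The second, on chromosome 1 from 12696350 to 12697294, had 1615 in CAMTA1 and 3375 in YAP5SA, with 974 in TAZ4SA and 930 in TAZ-CAMTA1. The third, on chromosome 5 from 175349147 to 175349856, had 1337 in CAMTA1, 1876 in YAP5SA and 619 in TAZ4SA. TAZ-CAMTA1 had only 54.8 there, EV 38.4 and TFE3 88.5. At the fourth, on chromosome 1 from 236116861 to 236117607, the areas were 1188 in CAMTA1, 2764 in YAP5SA and 284 in TFE3, and 82.1 or less in the remaining lists. The fifth, on chromosome 11 from 28405873 to 28406306, had 1146 in CAMTA1, 1508 in YAP5SA and 306 in TFE3. The nearest YAP-TFE3 peak was 6497 to 40735 bp away from these last 4.

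**Figure D5:**
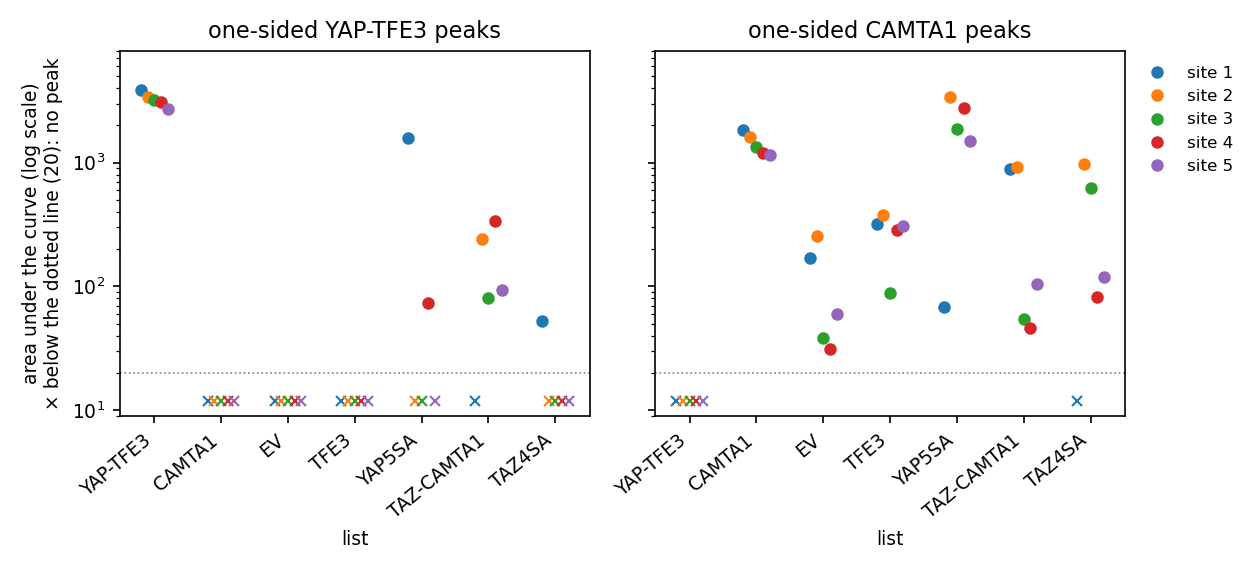
Area under the curve (y axis, log scale) in each of the 7 lists (x axis) at the 5 largest one-sided YAP-TFE3 peaks (left) and the 5 largest one-sided CAMTA1 peaks (right), colours telling the sites of a panel apart; crosses under the dotted line, the caller's minimum area of 20, mark lists without a peak. On the right, 4 of the 5 YAP5SA points (1508 to 3375) lie above the CAMTA1 points of the same sites.

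Among shared pairs the areas seldom differed by much. Of the 43057 pairs with summits of 6 or more in both lists, 149 (0.346%) lay 1.5 log2 units or more above the middle of the ratio and 253 (0.588%) as far below it. The highest ratio was on chromosome 13 from 96890352 to 96891809, with an area of 4771 in YAP-TFE3 and 400 in CAMTA1, a fold of 11.9. The other lists had 908 there in TAZ-CAMTA1 and 81.0 or less elsewhere. The next were on chromosome 14 from 19794794 to 19796209 (4134 against 366, 11.3-fold), on chromosome 11 from 56917178 to 56919511 (6443 against 609, 10.6-fold) and on chromosome 5 from 90278969 to 90279936 (4656 against 463, 10.05-fold). A site on chromosome 8 followed, at 6.89-fold. TAZ-CAMTA1 had the largest area of the 5 remaining lists at all 5 of these sites, from 583 to 3354, and TFE3 had at most 594.

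In the other direction the folds were smaller. The lowest ratio was on chromosome 1 from 112147415 to 112148167, with 246 in YAP-TFE3 and 1637 in CAMTA1, a fold of 6.65 in favour of CAMTA1. YAP5SA had 1037 there and EV 107. The next sites lay on chromosome 11 from 130558820 to 130559799 (297 against 1894), on chromosome 17 from 9934223 to 9935137 (353 against 2247), on chromosome 12 from 48161957 to 48163223 (589 against 3510) and on chromosome 7 from 44202519 to 44203736 (620 against 3627). The last 2 were larger still in YAP5SA, at 4845 and 6222. Over all 253 such pairs YAP5SA was the largest of the remaining lists at 39.9%, against 16.8% of the 149 pairs higher in YAP-TFE3 and 14.7% of all pairs of that height. TAZ-CAMTA1 was the largest at 53.8, 80.5 and 82.3%. The 253 pairs were chosen for a low YAP-TFE3 area, and TAZ-CAMTA1 is the list most like YAP-TFE3, so these shares are not independent of the choice.

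The pairs outside EV, TFE3 and YAP5SA peaks with the largest smaller area show how modest this class was. The first lay on chromosome 21 from 44056318 to 44056937, with 969 in YAP-TFE3, 607 in CAMTA1 and 268 in TAZ-CAMTA1. The second was on chromosome 7 from 154882358 to 154882735, with 974, 601 and 89.3 in the same order and 250 in TAZ4SA. The third, on the same chromosome from 47817566 to 47818132, had 592, 742 and 158. The fourth was on chromosome 3 from 151404102 to 151404399, with 687, 583 and 29.4, and its nearest EV, TFE3 and YAP5SA peaks were 150581 bp or more away. The fifth, on chromosome 5 from 74212631 to 74213114, had 571, 893 and 70.5. All 5 had a TAZ-CAMTA1 peak, smaller than in either list of the pair.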

How the data were processed

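ATAC-seq of SW872 cells was analysed from 7 deposited peak lists, 1 per vector, in hg19 coordinates. According to the study's methods, NGmerge trimmed the adapters, BWA-MEM placed the reads, and Genrich called peaks in its ATAC mode after removal of PCR duplicates, blacklisted regions and mitochondrial reads. The methods describe peak calling on single replicates, whereas 1 list per group was deposited. Whether a list comes from 1 library or from several combined is not given in the sources used here, so summits and areas may rest on unequal numbers of libraries (TFE3 has 2). The authors deposited, for each peak, a signal value and the −log10 p of the summit. The signal value is Genrich's area under the curve of the peak, at least 20. Its baseline is not given in the sources used here. Area and summit both depend on read depth, which is unknown, and a peak missing from a list may lie just under the caller's limits.

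Overlaps, gaps and Jaccard indices were computed in Python 3.11.15 (numpy 2.4.6, pandas 2.3.3) and tested against bedtools 2.31.1 on simulated intervals. Over the 21 pairs of deposited lists only the Jaccard index was compared with bedtools, and it differed by 0 after rounding to 5 places. Groups followed the labels. Pairs were peaks that overlapped 1 peak of the other list each. The members and lists were chosen with earlier results of these data known. Named sites were the 5 largest one-sided peaks of each list, the 5 pairs without EV, TFE3 or YAP5SA with the largest smaller area, and the 5 pairs at either end of the area ratio. At named sites the largest overlapping peak of each list is given, and elsewhere areas of the other lists are summed over a site. Alternatives were equal numbers of peaks (152702, by summit), stricter or looser summits and distances, an overlap of 50% of both peaks, autosomes only, 250-bp windows to each side of the summit, all overlapping pairs, and peaks of EV, TFE3 or YAP5SA within 1 kb counted as present. Genes, sequences and motifs were not analysed here, as the genome at hand was of another build.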

Additional observations from a re-analysis of the deposited data

How the results depend on the processing

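Of 74 values of 16 results recomputed under alternatives, 50 moved beyond their counting interval or, for numbers of peaks, by more than 1.5 times, 24 did not, and none changed sign. Intervals of Jaccard values count each base as a separate observation, which makes them too small. What caused a change was not tested, except that equal numbers, summit and distance settings alter by construction which peaks are counted. In the order YAP-TFE3 then CAMTA1, the shared shares were 75.9 and 79.5% with equal numbers of peaks, 72.7 and 79.3% at a summit of 4 or more in every list, and 48.5 and 51.1% where the overlap had to span 50% of each peak. The excess of the Jaccard index with CAMTA1 over that with TFE3 was 0.0269 with equal numbers, 0.0491 at a summit of 4 or more and 0.0404 on autosomes. Its excess over that with YAP5SA was 0.118, 0.117 and 0.113, and 0.0893 with 250-bp windows to each side of the summit. The index outside EV peaks was 0.416, 0.418, 0.402 and 0.305 in the same order. Taking all overlapping pairs gave median log2 ratios of 0.057 for width and 0.32 for area and a summit difference of 0.46, which was 0.44 at a summit of 4 or more and 0.44 with the 50% overlap. The share of pairs with an EV peak was 74.5% with equal numbers, 66.8% at a summit of 4 or more and 77.8% when a third-list peak within 1 kb counted, and that of pairs without EV, TFE3 or YAP5SA 6.21, 11.2 and 5.29%. One-sided YAP-TFE3 and CAMTA1 peaks numbered 2172 and 909 with equal numbers, 3952 and 1448 at a summit of 5 or more, 60 and 9 at 8, 1429 and 448 without overlap in place of 1 kb, and 597 and 146 at 5 kb. The share of one-sided YAP-TFE3 peaks with a YAP5SA peak was 35.5% with equal numbers, 34.3% at a summit of 5 and 47.1% when a third-list peak within 1 kb counted. That with an EV peak was 31.3, 20.4 and 29.0% under the same settings and 28.2% without the 1-kb distance. The share of one-sided CAMTA1 peaks with a YAP5SA peak was 61.5% with equal numbers, 55.1% at a summit of 5 and 88.9% at 8, where 9 peaks were left. That with an EV peak was 32.5% at 5 and 88.9% at 8. Both shares were higher for one-sided CAMTA1 than for one-sided YAP-TFE3 peaks under every alternative run. No paired analysis was possible because no value per library was used here. Alternatives that leave out a library, and those that need gene starts or motifs, were not run. Unknown depth limits every comparison of areas and list lengths.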

Other observations

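Some differences between the YAP-TFE3 and CAMTA1 lists ran over long stretches rather than single peaks. These stretches were picked after their values were seen, are described without a test, and rest on 1 list per group. On chromosome 5 from 94219954 to 94423571, a stretch of 204 kb, 10 one-sided YAP-TFE3 peaks lay together, the largest number in any 1-Mb bin. The YAP-TFE3 list had 66 peaks there, which held 7.45 per 100000 of the summed area of that list, against 0.575 in CAMTA1 (7 peaks). The same measure was 0.460 in TFE3 (3 peaks), 0.641 in TAZ-CAMTA1 (6 peaks), 0.997 in EV (10 peaks), 1.09 in TAZ4SA (8 peaks) and 1.27 in YAP5SA (16 peaks). None of the 10 one-sided peaks overlapped a TAZ-CAMTA1 or TFE3 peak, 4 overlapped an EV peak and 1 a YAP5SA peak. The one-sided CAMTA1 peaks had a single 1-Mb bin with 5 or more, on chromosome 2, where 5 lay between 235595000 and 235738031. That stretch held 4.79 per 100000 of the summed area of the CAMTA1 list and 1.45 of the YAP-TFE3 list, with 2.46 in TAZ4SA, 2.60 in EV, 2.69 in TAZ-CAMTA1, 3.12 in YAP5SA and 3.55 in TFE3.

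The summed area in bins of 250 kb, as a share of the summed area of each list, was compared over the 6697 bins in which YAP-TFE3 or CAMTA1 had at least 3 per 100000. With 0.5 added to both, the log2 ratio of YAP-TFE3 to CAMTA1 had a median of 0.00 and ran from -0.41 to 0.36 over the middle 90% of bins. The bin most in favour of YAP-TFE3 was that on chromosome 5 from 94250001, with 7.17 per 100000 against 0.476 in CAMTA1 and 1.06 or less in the other 5 lists. Next came chromosome 11 from 56750001, with 7.47 against 0.916 and 3.71 in TAZ-CAMTA1, and chromosome 19 from 28750001, with 5.32 against 0.618 and 0.671 or less elsewhere. The bin most in favour of CAMTA1 lay on chromosome 13 from 91750001, with 13.2 against 2.03 in YAP-TFE3. The other lists had 4.06 in EV, 10.8 in TAZ-CAMTA1, 13.7 in TFE3, 15.97 in YAP5SA and 23.9 in TAZ4SA. The next, on chromosome 5 from 165500001, had another order: 2.54 in YAP-TFE3 and 9.35 in CAMTA1, 2.19 in TFE3 and 2.20 in TAZ-CAMTA1, but 30.6 in YAP5SA, 37.9 in EV and 69.1 in TAZ4SA.

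The area ratio of tall shared pairs also differed between chromosomes. The median log2 ratio over pairs with summits of 6 or more in both lists was 0.14 (0.12 to 0.15) on chromosome 2 and 0.46 (0.44 to 0.47) on chromosome 19, the lowest and the highest of the autosomes. In bins of 5 Mb with at least 30 such pairs, the 11 bins of chromosome 19 ran from 0.28 to 0.51, against a middle value of 0.21 over all 464 bins, and 5 of them were among the 12 highest bins.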
